A study of Homo sapiens with 8 samples.

Results

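Metallothioneins are small, cysteine-rich proteins that bind zinc and copper in the cytoplasm and take up cadmium and other toxic metals. The genes examined were MT1A, MT1E, MT1F, MT1G, MT1H, MT1M, MT1X and MT2A, a chosen set of MT1 and MT2 isoforms whose probes were found by matching transcript accessions to the gene symbols. MT1B, another coding MT1 gene with a probe, was not in the set and is described with the other metallothioneins. These 8 genes, of 19483 with a symbol, were covered by 10 of the 42405 probes, since MT1H and MT1X each had 2 probes and the others 1. All 10 probes were well above background on all 8 arrays and all 10 were among the 28762 probes tested.

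RNA came from U87 cells, an established human glioblastoma line, transiently transfected with an siRNA that targets RND3 (siRND3) or a non-silencing one (siControl), and each sample was hybridised to 1 array with 1 colour. There were 3 siControl and 3 siRND3 arrays at 24 h, and 1 siControl and 1 siRND3 array at 48 h. No untransfected cells were among these arrays, so every group had received siRNA. Either of 2 siRNAs was used according to the methods, with no record here of the one behind each array, and nothing says that replicates came from separate transfections, so p-values may measure only technical spread between these samples. The 4 siRND3 arrays lay in row 1 of a single slide and the 4 siControl arrays in row 2, and the effect of row cannot be told apart from that of treatment. Both arrays at 48 h lay in column 4 and those at 24 h in columns 1 to 3, so that column and time cannot be told apart either.

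MT1 and MT2 genes are transcribed when zinc, cadmium or copper activates the metal-responsive transcription factor MTF1, which binds metal response elements in their promoters, and glucocorticoids and oxidative stress induce several of them as well. In brain, MT1 and MT2 are known mainly from astrocytes, whereas MT3 is the form named for neural tissue. The genes lie side by side on chromosome 16. The annotation orders them MT4, MT3, MT2A, MT1E, MT1M, MT1A, MT1B, MT1F, MT1G, MT1H and MT1X, with pseudogenes such as MT1L, MT1DP and MT1IP between them. Their coding sequences are closely alike, so a probe named for one isoform may also bind transcripts of another, which was not tested here. Signals are therefore given by probe, levels of different probes are not compared, and fewer transcripts per cell cannot be told apart from fewer cells that express a gene.

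The sequences before the transcription start are shown because they hold the binding motif of MTF1 that these genes share. A promoter entry was found for 3 of the 8 genes in RefSeq sequences of GRCh38.p14, namely MT2A (chr16:56608334-56608583), MT1H (chr16:56669564-56669813) and MT1X (chr16:56682220-56682469), all on the plus strand and 250 bases long. Capitals mark the core of the metal response element, TGCACNC or TGCGCNC on either strand.
MT2A: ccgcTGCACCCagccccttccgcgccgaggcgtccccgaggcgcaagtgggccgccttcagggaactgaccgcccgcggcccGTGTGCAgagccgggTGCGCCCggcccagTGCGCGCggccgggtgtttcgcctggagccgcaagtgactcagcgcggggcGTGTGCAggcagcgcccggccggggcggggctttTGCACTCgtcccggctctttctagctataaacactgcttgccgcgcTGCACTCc
MT1H: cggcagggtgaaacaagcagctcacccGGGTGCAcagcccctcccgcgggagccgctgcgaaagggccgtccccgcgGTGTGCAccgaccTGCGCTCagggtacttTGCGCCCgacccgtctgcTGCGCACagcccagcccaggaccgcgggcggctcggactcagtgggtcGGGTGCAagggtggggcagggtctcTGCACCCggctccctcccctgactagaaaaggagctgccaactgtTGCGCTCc
MT1X: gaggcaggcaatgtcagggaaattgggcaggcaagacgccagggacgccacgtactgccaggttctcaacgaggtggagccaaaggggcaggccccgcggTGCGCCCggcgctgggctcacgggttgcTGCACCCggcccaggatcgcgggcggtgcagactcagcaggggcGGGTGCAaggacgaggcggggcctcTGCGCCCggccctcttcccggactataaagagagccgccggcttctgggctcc
The core occurred 7 times before MT2A, 8 times before MT1H and 4 times before MT1X. Of 35116 promoters of the same length in the same source, 24.8% held at least 1 such core, 0.37% held at least 4 and 0.12% held at least 5. In each of the 3 promoters the last base of a core lay 47 or 48 bases before the start. A motif match is a description of these letters and no evidence that a factor was bound in U87 cells.

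The label of the cells and of the knockdown was checked first. RND3 (A_23_P142849) gave log2 signals of 11.88, 11.91 and 11.90 in siControl and 10.13, 10.18 and 10.41 in siRND3 cells at 24 h, and 11.48 and 9.83 at 48 h. It was lower by 1.66 on the log2 scale at 24 h (SE 0.09, adjusted p = 0.000339), or 3.15-fold. The astrocyte markers GFAP and AQP4 and S100B were well above background on at most 1 array per probe, whereas SLC1A3, ALDH1L1, VIM, CD44, NES and CHI3L1 were so on all 8. Of the epithelial and hepatocyte markers, CDH1 and ALB were well above background on no array, while EPCAM and 1 of 2 KRT8 probes were so on all 8. Among endothelial markers VWF, CDH5 and a PECAM1 probe were well above background on all 8 arrays. Among leukocyte and microglia markers CD68 and 2 PTPRC probes were so on all 8, other PTPRC probes on at most 1, and CX3CR1 on none. In the knockdown test at 24 h, 1 of 4 endothelial probes, another of PECAM1, was lower in siRND3 cells (difference -0.99, adjusted p = 0.0212) and none higher. Over all probes 6.40% were lower and 5.38% higher. That call was lost in 5 of 15 alternative fits, and the first PECAM1 probe differed by -0.58 (adjusted p = 0.0653). None of 3 leukocyte and microglia probes passed that test. The share of probes well above background was 68.3% to 70.8% per array. No spot was saturated, and the highest median signal of a member spot, that of MT2A, was 302596 against a saturation value of 779110.

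At 24 h the metallothionein signals of siRND3 and siControl cells lay close together. None of the 10 probes passed the test in either direction, where 5.38% of all probes were higher and 6.40% lower in siRND3 cells at an adjusted p under 0.05. Without adjustment none had a p under 0.05 either, a level reached by 28.2% of all probes, and none was called by significance analysis of microarrays. The differences ran from -0.11 for MT1A to 0.04 for MT1G on the log2 scale, with 8 below 0 and 2 above it, although 5 of those 8 lay above 0 with scaling to the 75th percentile. Their median was -0.03, against 0.05 over all probes tested.

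MT2A, the main inducible isoform in most human cells, gave log2 signals of 18.18, 18.14 and 18.14 in siControl and 18.27, 18.10 and 18.14 in siRND3 cells at 24 h. The siRND3 arrays lay on both sides of the controls, and the difference was 0.02 (SE 0.08, adjusted p = 0.905). Its 95% interval ran from -0.16 to 0.20, or from 89.2% to 115% of the control signal.

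MT1A (A_23_P54840), a metal-inducible isoform, gave 17.68, 17.64 and 17.66 in siControl and 17.52, 17.57 and 17.58 in siRND3 cells. Every siRND3 array lay below every siControl array, but the gap was small, at -0.11 (SE 0.07, adjusted p = 0.343). The brighter MT1X probe (A_33_P3350056) behaved alike, with 16.95, 16.96 and 16.92 in siControl against 16.81, 16.87 and 16.85 in siRND3 cells. Its difference was -0.10 (SE 0.07, adjusted p = 0.386). These were the 2 of 10 probes whose groups did not overlap at 24 h, where 34.7% of all probes had groups that did not overlap. With 3 arrays against 3, the smallest p of an exact two-sided permutation test is 0.1, and both probes reached it.

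MT1E (A_23_P206724) gave 16.80, 16.85 and 16.83 in siControl and 16.74, 16.85 and 16.81 in siRND3 cells, and the groups overlapped. MT1F (A_23_P15174) gave 13.07, 13.26 and 13.18 in siControl and 13.07, 13.11 and 13.02 in siRND3 cells, a difference of -0.10 (SE 0.08, adjusted p = 0.443). Both encode metal-binding MT1 isoforms, and for both the spread between arrays covered the difference. MT1M (A_23_P66241) gave 14.15, 14.20 and 14.13 in siControl and 14.25, 13.98 and 14.08 in siRND3 cells. The siRND3 arrays spread more widely here, with an SD of 0.13 against 0.04 in siControl.

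MT1G (A_33_P3233645), a metal-inducible isoform, gave 7.28, 7.28 and 7.26 in siControl and 7.50, 7.14 and 7.31 in siRND3 cells. The brighter MT1H probe (A_33_P3315314) gave 17.18, 17.20 and 17.16 in siControl and 17.11, 17.16 and 17.18 in siRND3 cells. The dimmer MT1H probe (A_33_P3368313) gave 4.14, 4.43 and 4.50 in siControl and 4.58, 4.26 and 4.22 in siRND3 cells. In all of these the groups overlapped, and the dimmer MT1H probe had the widest 95% interval of the 10, from -0.34 to 0.33 or 78.9% to 126% of the control signal. The dimmer MT1X probe (A_33_P3236868) gave 13.16, 13.26 and 13.21 in siControl and 13.29, 13.18 and 13.10 in siRND3 cells, again with overlapping groups. A difference beyond -0.3409 to 0.3333 on the log2 scale lay outside the interval of every member at 24 h.

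**Figure D1:**
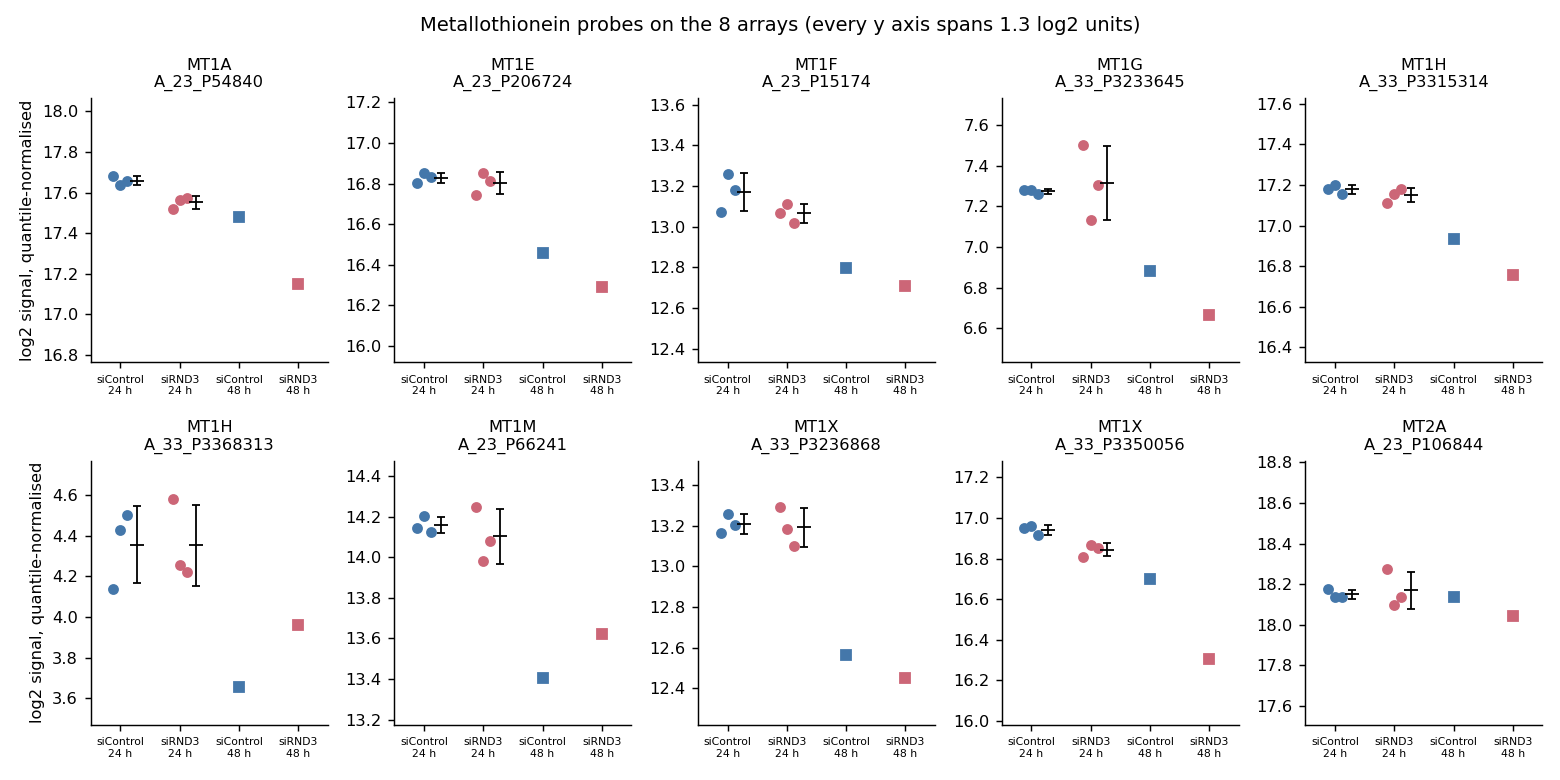
Each panel plots 1 metallothionein probe, with the log2 quantile-normalised signal on the y axis (the panels span the same range of log2 units at different levels) and the 4 groups on the x axis. Circles are arrays at 24 h, squares the single arrays at 48 h, and black bars the mean and SD of 3 arrays. The circles of both treatments lie close together, and the squares lie below them in every panel but that of MT2A.

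**Figure D2:**
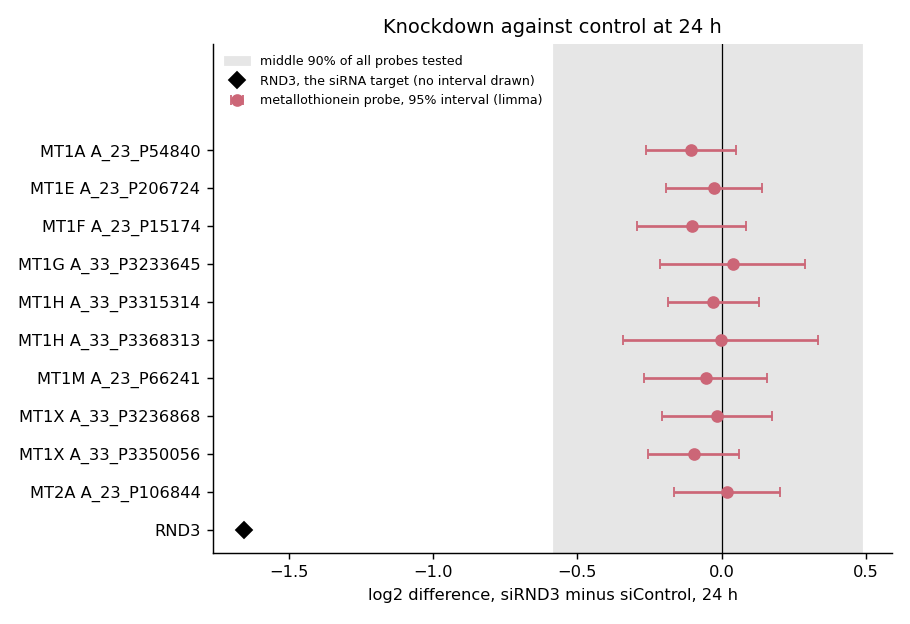
The log2 difference between siRND3 and siControl cells at 24 h is drawn for each metallothionein probe with its 95% interval from limma, over a grey band that holds the middle 90% of all probes tested (-0.58 to 0.48). Every metallothionein interval includes 0, while RND3 (diamond, drawn without an interval) lies at -1.66.

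At 48 h each treatment had 1 array, so the fit assumed that these arrays vary like those at 24 h. None of the 10 probes passed, where 9.84% of all probes were higher and 9.27% lower in siRND3 cells. Without adjustment 2 probes had a p under 0.05, both with lower signal in siRND3 cells, where 31.1% of all probes reached that level. The brighter MT1X probe read 16.70 in siControl and 16.31 in siRND3 cells, a difference of -0.39 (SE 0.11, adjusted p = 0.0579). MT1A read 17.48 and 17.15, a difference of -0.33 (SE 0.11, adjusted p = 0.0978). MT1M lay the other way, at 13.41 in siControl and 13.62 in siRND3 cells, with a difference of 0.22 (adjusted p = 0.427), as did the dimmer MT1H probe at 3.66 and 3.96 (adjusted p = 0.483). The count at 48 h was 2 with normexp background correction, 1 without a filter on dim probes and 1 when the probes of each gene were averaged.

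The knockdown effect at 48 h was also set against that at 24 h in an interaction contrast. None of the 10 probes passed, where 1.12% of all probes had a more positive and 1.66% a more negative effect at 48 h. None passed at an unadjusted p under 0.05, a level reached by 18.5% of all probes. The contrasts ran from -0.30 for the brighter MT1X probe to 0.31 for the dimmer MT1H probe. A difference between the times in the response of a metallothionein to knockdown was therefore not detected.

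The larger differences in this family lay between the times. In siControl cells all 10 probes read lower at 48 h than the mean at 24 h (9 with scaling to the 75th percentile or without siControl replicate 1, where MT2A lay just above 0), with a median difference of -0.37 against 0.03 over all probes. The array at 48 h lay below all 3 arrays at 24 h for 9 of 10 probes, where 33.8% of all probes did so. In siRND3 cells it lay below all 3 for 10 of 10, where 29.9% of all probes did so, and the median difference was -0.44 against 0.05. For 9 of the 10 this held in both treatments, against 15.2% of all probes. Members may share bound transcripts, so these 10 probes are not 10 independent observations.

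In siControl cells 2 of the 10 probes fell and none rose, where 2.77% of all probes fell and 0.841% rose. MT1M, an isoform known from liver, fell from 14.15, 14.20 and 14.13 at 24 h to 13.41 at 48 h, by 0.75 on the log2 scale (SE 0.13, adjusted p = 0.0328). The dimmer MT1X probe fell from 13.16, 13.26 and 13.21 to 12.56, by 0.65 (SE 0.11, adjusted p = 0.0360). A further 6 probes, 8 in all, reached an unadjusted p under 0.05 where 21.7% of all probes did, for which MT1E (16.46 at 48 h, difference -0.37, adjusted p = 0.0967) and MT1F (12.80 at 48 h, difference -0.37, adjusted p = 0.125) are examples. MT2A stood apart with 18.14 at 48 h, within the range of its arrays at 24 h, and a difference of -0.01 (SE 0.11, adjusted p = 0.963). The value of MT2A depends on the quantile step, as at 24 h, and its difference was 0.05 with scaling to the 75th percentile. Both calls, those of MT1M and the dimmer MT1X probe, were lost when any 1 of the 3 siControl arrays at 24 h was left out. Calls over all probes also fell steeply in those fits. With scaling to the 75th percentile no metallothionein probe was called.

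In siRND3 cells 5 of the 10 probes fell and none rose, where 6.50% of all probes fell and 2.62% rose. The dimmer MT1X probe fell from 13.29, 13.18 and 13.10 to 12.45, by 0.74 (SE 0.11, adjusted p = 0.0134), and the brighter one from 16.81, 16.87 and 16.85 to 16.31, by 0.54 (SE 0.09, adjusted p = 0.0195). MT1E fell from 16.74, 16.85 and 16.81 to 16.29, by 0.51 (SE 0.10, adjusted p = 0.0263). MT1X and MT1E are metal-binding isoforms expressed in many tissues. MT1G fell from 7.50, 7.14 and 7.31 to 6.67, by 0.65 (SE 0.15, adjusted p = 0.0453). MT1A fell from 17.52, 17.57 and 17.58 to 17.15, by 0.40 (SE 0.09, adjusted p = 0.0469). The calls of MT1G and MT1A lay just inside the threshold, and that of MT1A was lost whichever array at 24 h was left out.

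The other 5 probes did not pass in siRND3 cells, although all read lower at 48 h. The brighter MT1H probe read 16.76 (difference -0.39, adjusted p = 0.0504), MT1M 13.62 (difference -0.48, adjusted p = 0.0669) and MT1F 12.71 (difference -0.36, adjusted p = 0.102). The dimmer MT1H probe read 3.96 (difference -0.39, adjusted p = 0.269). MT2A read 18.04 against 18.27, 18.10 and 18.14 at 24 h, a difference of -0.12 (SE 0.11, adjusted p = 0.509), the smallest of the 10. The call that stood whichever array at 24 h was left out was that of the dimmer MT1X probe (adjusted p from 0.0226 to 0.0385). The count of 5 became 1, 2 and 1 without siControl replicates 1, 2 and 3, and 4, 4 and 2 without siRND3 replicates 1, 2 and 3. Calls over all probes also fell in each of these fits, and more so without a siControl array. Since the interaction contrast called no member, the counts of 2 and 5 do not show that the treatments differ.

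**Figure D3:**
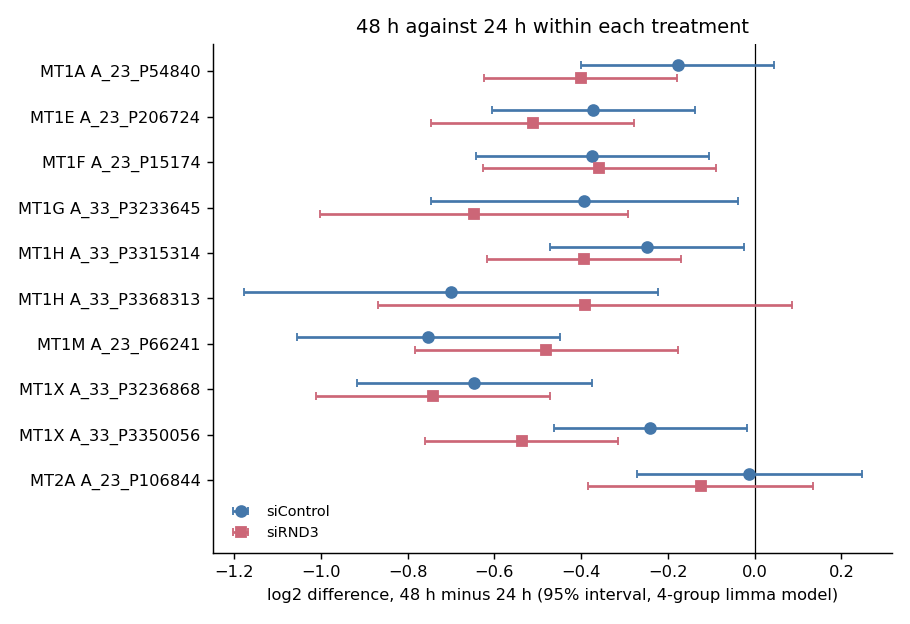
For each metallothionein probe the log2 difference of 48 h minus 24 h is drawn with its 95% interval, with circles for siControl and squares for siRND3 cells. All points lie below 0 (MT2A in siControl cells lay above it with scaling to the 75th percentile), the intervals of both treatments overlap for every probe, and those of MT2A include 0 in both.

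Bright probes varied less between arrays than dim ones, so members were also read against probes of like signal, a grouping made after the values were seen. Among the 246 probes with a mean log2 signal between 16 and 20, the middle 90% of differences over time in siRND3 cells ran from -0.35 to 0.19. The members in that band were MT1A, MT1E, MT2A and the brighter MT1H and MT1X probes, of which all but MT2A lay below that range, at -0.39 to -0.54. In siControl cells the middle 90% of the band ran from -0.246 to 0.15 with no probe of it called lower, and MT1A (-0.18), the brighter MT1X probe (-0.24) and MT2A (-0.01) lay inside it. There the brighter MT1H probe lay at its edge (-0.2475) and MT1E below it (-0.37). Over time in siRND3 cells 6 of the 246 probes of the band were called lower. Of these 5 were named for metallothioneins, namely MT1A, MT1E, MT1X, MT1B and MT1L, and the other for the tubulin gene TUBB6. The band held 7 metallothionein probes, which may share bound transcripts. At 24 h the middle 90% of knockdown differences in this band ran from -0.105 to 0.111, which held 4 of its 5 members, with MT1A at -0.106 just outside.

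The values of probes of the same gene are set side by side, with no test of the difference between probes. In siControl cells the dimmer MT1X probe differed by -0.65 between the times and the brighter by -0.24, and for MT1H the dimmer probe differed by -0.70 and the brighter by -0.25. For MT1H this order turned with normexp correction, to -0.0827 for the dimmer and -0.1996 for the brighter probe, and with the authors' values, to -0.1394 and -0.2071. In siRND3 cells the MT1X probes differed by -0.74 and -0.54 and the MT1H probes by -0.39 and -0.39. Which transcripts each probe binds was not tested here. Where a probe was printed on 2 spots, the gap between them on an array was at most 0.60 for the dimmer MT1H probe and at most 0.24 for the others.

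The other metallothionein genes were read as a separate list. Of 13 symbols in it, 6 had a probe and 5 were tested, since MT4, the form of stratified epithelium, was well above background on no array. None of the 5 passed at 24 h, with differences from -0.21 to 0.08. For MT1B (-0.06) and MT1L (-0.10) every siRND3 array lay below every siControl array at 24 h. Over all probes 34.7% had groups that did not overlap. MT1B (A_23_P37983), a coding MT1 gene, gave 17.25, 17.26 and 17.24 at 24 h and 16.77 at 48 h in siRND3 cells, and fell by 0.48 (adjusted p = 0.0264). MT1L (A_23_P427703), a transcribed pseudogene of the cluster, gave 17.60, 17.63 and 17.62 and then 17.04, and fell by 0.58 (adjusted p = 0.0144). The pseudogene MT1DP stood well above background on the 6 arrays at 24 h and on neither at 48 h. Its measured signal was 3.1-fold lower at 48 h in siControl cells (adjusted p = 0.0462) and 2.85-fold lower in siRND3 cells (adjusted p = 0.0338). These folds take the mean at 24 h against the signal measured at 48 h, which was above the lowest signal called well above background on those arrays. How far they depend on the handling of background was not tested. MT3, a growth-inhibitory form of neural tissue, did not pass over time in either treatment, with differences of 0.15 in siControl (adjusted p = 0.690) and 0.0006 in siRND3 cells (adjusted p = 0.999).

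Genes that act on metallothionein transcription were examined next. Of 7 probes tested in that list, 1 was lower in siRND3 cells at 24 h and none higher, with a median of -0.02. Over all probes 6.40% were lower and 5.38% higher. MTF1 (A_33_P3294237), the metal sensor itself, gave 8.53, 8.64 and 8.62 in siControl and 8.63, 8.58 and 8.69 in siRND3 cells, a difference of 0.04 (SE 0.07, adjusted p = 0.759). NR3C1, the glucocorticoid receptor, differed by 0.14 (adjusted p = 0.280) and 0.01 (adjusted p = 0.957) on its 2 probes. SP1, a general transcription factor that binds GC boxes, fell from 8.91, 9.21 and 9.03 to 8.33, 8.13 and 8.34, by 0.78 (SE 0.11, adjusted p = 0.00704), while the metallothionein signals at the same time did not pass the test.

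Among targets of MTF1 other than metallothioneins, 1 of 9 probes was lower at 24 h and none higher, against 6.40% and 5.38% of all probes. NDRG1, a stress- and hypoxia-responsive gene, fell from 14.52, 14.28 and 14.37 to 13.57, 13.70 and 13.76, by 0.71 (SE 0.09, adjusted p = 0.00640). SLC30A1, the plasma membrane zinc exporter that MTF1 induces, gave 9.58, 9.54 and 9.54 in siControl and 9.75, 9.86 and 9.71 in siRND3 cells. The groups did not overlap, but the difference of 0.22 (SE 0.07) did not pass (adjusted p = 0.106), except with normexp correction (adjusted p = 0.0467). At 48 h SLC30A1 read 9.52 in siControl and 10.11 in siRND3 cells, a rise of 0.58 (adjusted p = 0.0225), while no metallothionein passed the test at that time. In the same list NDRG1 (difference -1.94, adjusted p = 0.000865) and SLC39A10, a zinc importer (difference -1.02, adjusted p = 0.0254), fell at 48 h.

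Transporters that set the metal supply were read at 24 h, where 6.40% of all probes fell and 5.38% rose. None of 10 zinc exporter probes passed at 24 h, with a median of -0.08. Of 15 zinc importer probes 1 fell, a probe of SLC39A14, a zinc and iron importer, with 6.46, 6.51 and 6.41 in siControl and 6.11, 5.81 and 5.98 in siRND3 cells (difference -0.49, SE 0.09, adjusted p = 0.0228). Its other probe differed by -0.35 (adjusted p = 0.0587), and the call of the first was lost when any 1 siControl array was left out. In the copper list, 2 of 17 probes fell and 1 rose, with a median of 0.07. Both probes that fell belong to SLC31A1, the high-affinity copper importer, which on A_24_P928901 went from 8.72, 8.49 and 8.63 to 6.12, 6.36 and 6.26, by 2.37 (SE 0.10, adjusted p = 0.000147), and on A_24_P321068 fell by 2.32 (SE 0.16, adjusted p = 0.000633). In linear terms SLC31A1 was 5.16-fold lower on the first of these, against 3.15-fold for RND3, while no metallothionein passed at the same time. SLC31A2, a low-affinity copper transporter, rose by 0.31 (SE 0.07, adjusted p = 0.0362), a call that was lost when any 1 array was left out.

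Glucocorticoid-induced genes and the neighbours of the cluster were read next. Of 8 probes of the glucocorticoid list 2 fell and 1 rose at 24 h, where 6.40% of all probes fell and 5.38% rose. The median of the list was 0.05. DUSP1, a phosphatase of MAP kinases, fell by 0.78 (SE 0.08, adjusted p = 0.00215), and ERRFI1, an inhibitor of the EGF receptor, by 0.61 (SE 0.09, adjusted p = 0.00783). SGK1, a serum- and glucocorticoid-regulated kinase, rose by 0.29 (SE 0.06, adjusted p = 0.0378), a call lost when any 1 array was left out. Of 12 probes of genes beside the cluster on chromosome 16, 1 fell, that of HERPUD1, a protein of the endoplasmic reticulum stress response (difference -0.47, SE 0.08, adjusted p = 0.0148), and the median was 0.08. That call was lost without siControl replicate 1 or 3. Over time in siControl cells 1 of these 12 rose and none fell, where 0.841% of all probes rose and 2.77% fell. In siRND3 cells none passed in either direction, where 2.62% of all probes rose and 6.50% fell.

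**Figure D4:**
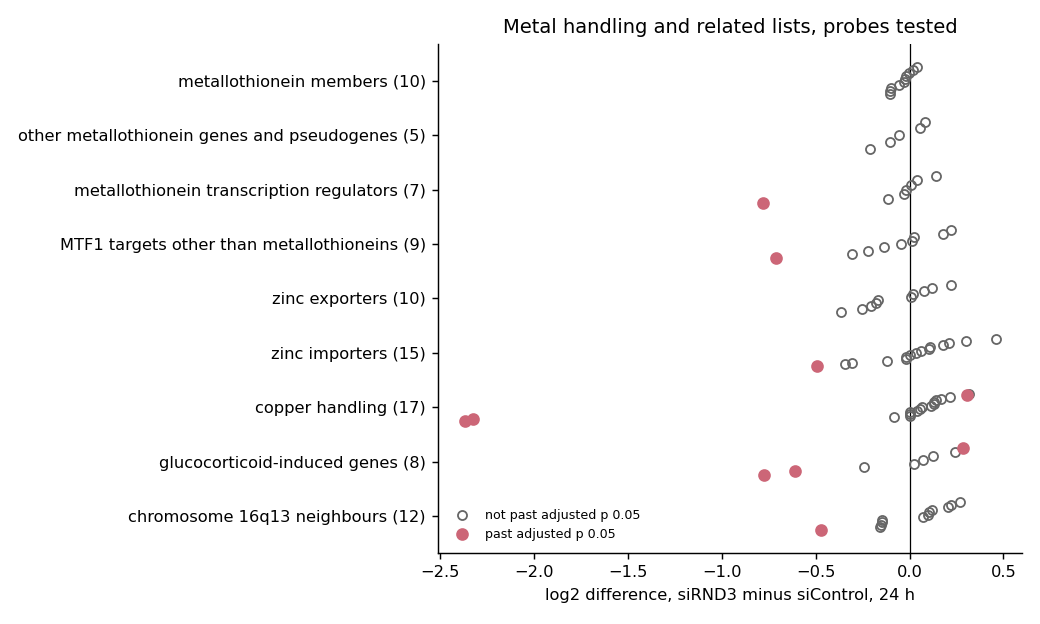
Each circle is 1 tested probe, placed by its log2 difference between siRND3 and siControl cells at 24 h, with the number of probes tested in brackets and filled circles for an adjusted p under 0.05. The metallothioneins crowd around 0, and the 2 filled circles farthest to the left are the SLC31A1 probes at -2.37 and -2.32.

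The pattern of the family over the 8 arrays was taken as the mean over its genes of centred log2 signals, with the brighter probe for MT1H and MT1X. It read 0.11, 0.14 and 0.10 on the siControl and 0.11, 0.04 and 0.07 on the siRND3 arrays at 24 h, then -0.20 and -0.36 at 48 h. Between pairs of member probes other than MT2A, Pearson's r over the 8 arrays ran from 0.467 to 0.990 in 36 pairs, and in the 9 pairs with MT2A from 0.393 to 0.800. These correlations are a description, since all points share the same arrays and 2 of the 8 lie apart from the rest. The probes most like the family pattern, among 6643 with an SD of at least 0.25 and a gene symbol, were those of SDC1 (Pearson's r = 0.99, Spearman's coefficient 0.95), FRMD3 (r = 0.99, Spearman's 0.86), KDSR (r = 0.99, Spearman's 0.93), GNAZ (r = 0.99, Spearman's 0.79) and RAMP1 (r = 0.99, Spearman's 0.86). SDC1, the cell surface proteoglycan syndecan-1, read 12.54, 12.55 and 12.47 in siControl and 12.40, 12.36 and 12.28 in siRND3 cells at 24 h, and 11.68 and 11.31 at 48 h. Its arrays at 48 h lay below all of those at 24 h, which the choice by likeness to the family pattern favours.

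**Figure D5:**
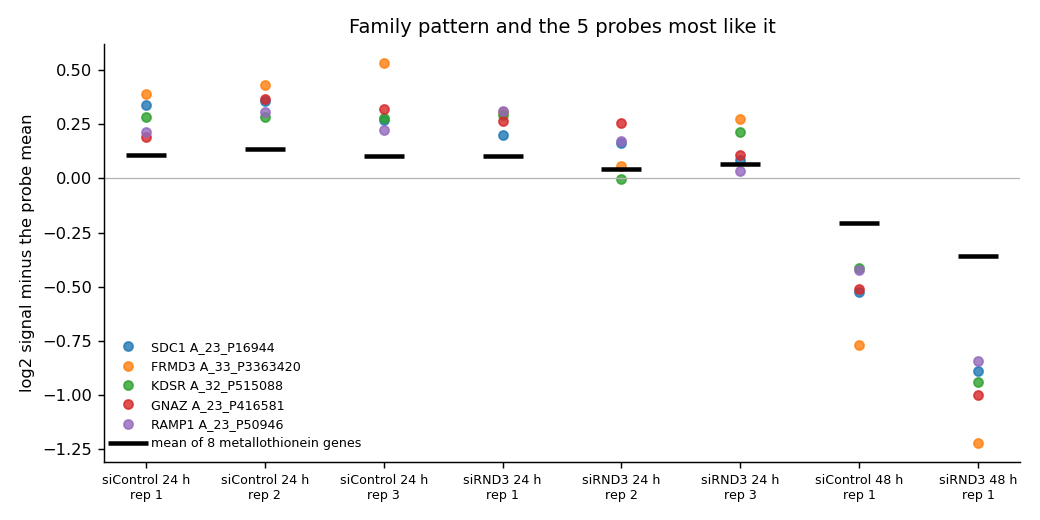
Log2 signals centred on each probe's mean are drawn for the 8 arrays (x axis), with black dashes for the mean of the 8 metallothionein genes and coloured circles for the 5 probes most like it. The dashes lie between 0.04 and 0.14 at 24 h and at -0.20 and -0.36 at 48 h, and the 5 probes are lower at 48 h than on any array at 24 h.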

How the data were processed

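Total RNA was amplified to Cy3-labelled cRNA, which was hybridised to human Agilent arrays, and groups, times and replicate numbers came from the deposited labels. The authors scanned the arrays and processed the scans with Agilent Feature Extraction 10.7.3.1, and the deposited files hold spot intensity, background-corrected within each array and not scaled between arrays. The authors also deposited log2 values, quantile-normalised according to their methods, and their ranks on every array were those of the spot medians. The processed intensity was taken to log2 and quantile-normalised over 8 arrays, after control spots (4259 of 62976) and outlier spots (0.364% to 0.530% per array) were left out, and spots of a probe were averaged. Probes well above background (at least 50% of spots so marked) on the 3 arrays of either group at 24 h entered the tests. Probes were named by unversioned transcript accession through the RefSeq gene table of GRCh38.p14, which named 25422 probes. The array was annotated on hg19, so coordinates are given for promoter sequences only.

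Knockdown at 24 h was tested on the 6 arrays with limma 3.58.1 in R 4.3.3, without covariates, and all other contrasts in a limma model of 4 groups, with p-values adjusted by Benjamini-Hochberg over every probe tested and 0.05 as the threshold. The scripts were tested on simulated data. The methods name significance analysis of microarrays (SAM) at 5%, which was run as an alternative, beside scaling to the 75th percentile, normexp correction with an offset of 50, the authors' values, normalisation over the arrays at 24 h, other filters, the replicate block, all 8 arrays in the 24 h fit, gene means, and each array at 24 h left out. No pairing by replicate number was detected (correlations of deviations of same-numbered arrays 0.00178, -0.0116 and 0.128, against -0.134 to 0.112 for other pairs). The labels do not say whether arrays were paired, and 3 arrays per group cannot exclude it. Members and lists were chosen with earlier results of these data known. Named were all members, MTF1, SLC30A1 and NR3C1, up to 3 list genes called at 24 h with the largest difference, and the 5 genes most like the family pattern. TUBB6 and the other genes were named after their values were seen. Some list members are not reported here. The number of arrays limits the precision.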

Additional observations from a re-analysis of the deposited data

Results flagged for a closer look

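No metallothionein met a criterion for a closer look. Among the other probes named, 4 had a knockdown effect at 48 h that differed from that at 24 h in the interaction contrast of limma. For NDRG1 (A_23_P20494) the effect was more negative at 48 h by -1.23 (adjusted p = 0.0344), from -0.71 at 24 h to -1.94. For SLC31A1 (A_24_P928901) the contrast was -1.16 (adjusted p = 0.040), from -2.37 to -3.53, while its other probe gave -0.81 (adjusted p = 0.257). For ERRFI1 (A_23_P46470) it was -0.97 (adjusted p = 0.0444), from -0.61 to -1.58. For PECAM1 (A_23_P252471), an endothelial marker, it was -2.45 (adjusted p = 0.0339), from -0.99 to -3.44. In siRND3 cells at 48 h that probe was at background, so the size of the 10.9-fold gap to siControl depends on how background is handled. The PECAM1 contrast was -0.7463 with normexp correction and -1.0968 with the authors' values. A second PECAM1 probe gave -0.45 (adjusted p = 0.529). All 4 calls were lost when any 1 siControl array at 24 h was left out. Of 11 alternatives in all, the call was lost in 6 for NDRG1, 9 for SLC31A1, 7 for ERRFI1 and 6 for PECAM1. The contrast of that SLC31A1 probe ran from -1.2223 to -0.6149 over them. Over all alternatives the adjusted p ran from 0.00582 to 0.098 for NDRG1, from 0.0307 to 0.103 for SLC31A1, from 0.0159 to 0.121 for ERRFI1 and from 0.0188 to 0.0911 for PECAM1.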

How the results depend on the processing

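No metallothionein probe was called for knockdown at 24 h under any alternative, nor for the interaction. The sign of small differences at 24 h turned with scaling to the 75th percentile (MT1E 0.0579, MT1A 0.0054, dimmer MT1X 0.027, brighter MT1H 0.0526, dimmer MT1H 0.0884; also MT2A over time in siControl cells, 0.0507). With normexp the dimmer MT1H probe turned to 0.033 at 24 h, and the interaction to -0.0061 for MT1F and -0.0227 for dimmer MT1H. With the authors' values dimmer MT1H was 0.0655 and MTF1 -0.0013 at 24 h, and the interaction -0.0027 for MT1F and -0.022 for dimmer MT1H. With gene means MT1H was 0.0657 for knockdown at 48 h and 0.082 for the interaction. Leaving out 1 array gave ranges at 24 h of -0.0334 to 0.0542 (MT2A), -0.0508 to 0.0034 (MT1E), -0.1275 to 0.0045 (MT1M), -0.0552 to 0.128 (MT1G), -0.0668 to 0.0282 (dimmer MT1X), -0.1191 to 0.0695 (dimmer MT1H) and -0.0218 to 0.0481 (NR3C1 A_33_P3767927), of -0.028 to 0.0657 for the interaction of MT1F, and of -0.0193 to 0.0004 for MT2A over time in siControl cells.

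Calls at 48 h were 2 with normexp, 1 with no filter and 1 with gene means. Calls for time in siControl cells were 0 with the 75th percentile, 4 with gene means and 0 to 2 without 1 array; in siRND3 cells they were 3 with the 75th percentile, 8 with normexp and 1 to 4 without 1 array. Over time in siControl cells the dimmer MT1H probe went from -0.7003 to -0.0827 with normexp and -0.1394 with the authors' values. The PECAM1 difference at 24 h went from -0.9914 to -0.3274 and -0.5191. The causes were not tested. In siRND3 cells all 10 probes were lower at 48 h in each alternative run by probe. Same-numbered arrays did not deviate together, and the replicate block left 0 metallothionein calls (MT1A -0.11, adjusted p = 0.461) while calls over all probes went from 3389 to 1654; the calls of SLC39A14, SLC31A2, SGK1 and HERPUD1 were lost. Calls over all probes for time, in either treatment, also fell whenever 1 array at 24 h was left out. The single arrays at 48 h limit every comparison over time.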
